A study of Rattus norvegicus with 6 samples.

Results

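The respiratory chain genes described here are subunits of the oxidative phosphorylation machinery and genes that share their symbols. They were measured in the rat liver cell line BRL-3A after siRNA against Hnrnpa2b1, which encodes an RNA-binding protein of the hnRNP family. They were chosen by symbol alone: every row of the deposited gene table whose name begins with Nduf, Uqcr, Atp5, Mt-nd, Mt-co, Mt-cytb or Mt-atp, the Sdh and Cox subunit names, Cyc1 and Cycs. This gave 110 rows and 104 gene symbols of 30957 genes. Where a symbol had several rows, the one with the highest summed count was kept. Of the 104, 13 lie in the mitochondrial genome and 91 in the nucleus. The nuclear genes comprise 77 subunits of complexes I to V, cytochrome c (Cycs), 7 complex I assembly factors and 6 other symbols (Cox7a2l, Atp5s, Atp5sl, Ndufv3-ps1, Atp5hl1 and Ndufb4l1).

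The study sequenced total RNA of 3 si-hnrnpa2b1 libraries and 3 NC libraries. The labels describe all 6 as BRL-3A, an established rat liver line, give the strain as Sprague-Dawley, although the line is generally known as one from Buffalo rat liver, and give both groups the same disease state, an excess of triglyceride in the blood. siRNA was delivered by lipofection for 48 h, but NC is not spelled out and the sources used here do not say whether it received an siRNA of its own. The labels also do not say whether the 3 libraries of a group came from separate cultures, so the p-values below measure a spread that may be technical.

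Libraries held 13374412 to 15224108 counts. The members in the mitochondrial genome took 5.998% to 6.956% of each library and the nuclear members 0.393% to 0.433%. The targeted gene had 662, 584 and 573 CPM (counts scaled to the size and composition of the library) in si-hnrnpa2b1 cells, against 953, 1064 and 1025 CPM in NC cells, a log2 fold change of -0.74 (edgeR quasi-likelihood test with Benjamini-Hochberg adjustment, adjusted p = 2.33e-06). All 3 si-hnrnpa2b1 libraries lay below all 3 NC libraries, and the transcript was lowered, not removed. Of 10 hepatocyte markers, 6 had no count in any library, albumin (Alb) and Hnf4a among them. The summed level of that list was 67.3 to 72.1 CPM in si-hnrnpa2b1 and 40.6 to 50.1 CPM in NC libraries, most of it from Cyp2e1 and Tf. Cyp2e1, 1 of the 2 tested, rose, with 37.7 ± 3.49 CPM in si-hnrnpa2b1 and 18.0 ± 3.71 CPM in NC cells (SD, n = 3 each). Its log2 fold change was 1.06 (edgeR quasi-likelihood test with Benjamini-Hochberg adjustment, adjusted p = 8.44e-05). Stellate cell and fibroblast markers summed to 15083 to 16043 CPM in si-hnrnpa2b1 and 15182 to 15563 CPM in NC libraries, with Col1a2 and Lrat at 0. Of the 6 tested, Acta2 and Des rose, at log2 fold changes of 0.27 and 0.30 (adjusted p = 0.00489 and 0.0138 in the same edgeR test). They are 33.3% of the 6, where edgeR called 5.30% of all tested genes. DESeq2 also called Vim. Without si-hnrnpa2b1 replicate 1, or without NC replicate 1, Des was not called (adjusted p = 0.0728 and 0.0636). Cholangiocyte markers summed to 11.8 to 12.5 CPM in si-hnrnpa2b1 and 13.53 to 15.03 CPM in NC libraries, with none of the 3 tested called by either tool. Endothelial and leukocyte markers summed to 48.6 to 51.9 and 1.22 to 2.59 CPM in si-hnrnpa2b1 libraries, against 44.7 to 48.6 and 1.27 to 1.97 CPM in NC libraries. The part of these markers in the values below was not tested. In bulk RNA, fewer cells of a type and less RNA per cell cannot be told apart.

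Complexes I to IV pass electrons from NADH and succinate to oxygen, and I, III and IV pump protons across the inner mitochondrial membrane. Complex V, the ATP synthase, uses the gradient to make ATP. Complexes I, III, IV and V are built from products of both genomes, whereas complex II is wholly nuclear. Nuclear subunit genes are transcribed one by one, many from promoters that bind NRF1, the ETS factor GABP or YY1. The mitochondrial genome is transcribed from each strand as a long precursor that is cut into shorter RNAs. Most of its protein genes lie on the same strand, with Mt-nd6 alone on the other.

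The question here is whether lowering Hnrnpa2b1 went with a change of the respiratory chain transcripts, in either genome. In these data 0 of the 93 members that could be tested rose or fell (edgeR quasi-likelihood test, adjusted p below 0.05 over 12261 genes), where 5.30% of all tested genes did, 2.36% upward and 2.94% downward. DESeq2 also called 0 of the 93, against 5.31% of all genes. At an unadjusted p below 0.05, 4 of the 93 passed (4.3%), namely Ndufa6, Sdhd, Atp5c1 and Cycs, where 18.3% of all genes did. Groups did not overlap for 11 of the 93 members (11.8%), against 23.4% of all genes. Of those 11, 8 were higher in si-hnrnpa2b1 cells, and of the 2868 such genes among all tested, 1415 were higher. As shares of all tested genes, 11.5% were higher and 11.9% lower without overlap. The differences were also small. The median size of the log2 fold change, without its sign, was 0.06 for the members and 0.10 for all tested genes, whose median standard errors were 0.08 and 0.09. For 82 of the 93 members the 95% interval of the log2 fold change lay within ±0.5, and for 65 it lay within ±0.3.

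**Figure D1:**
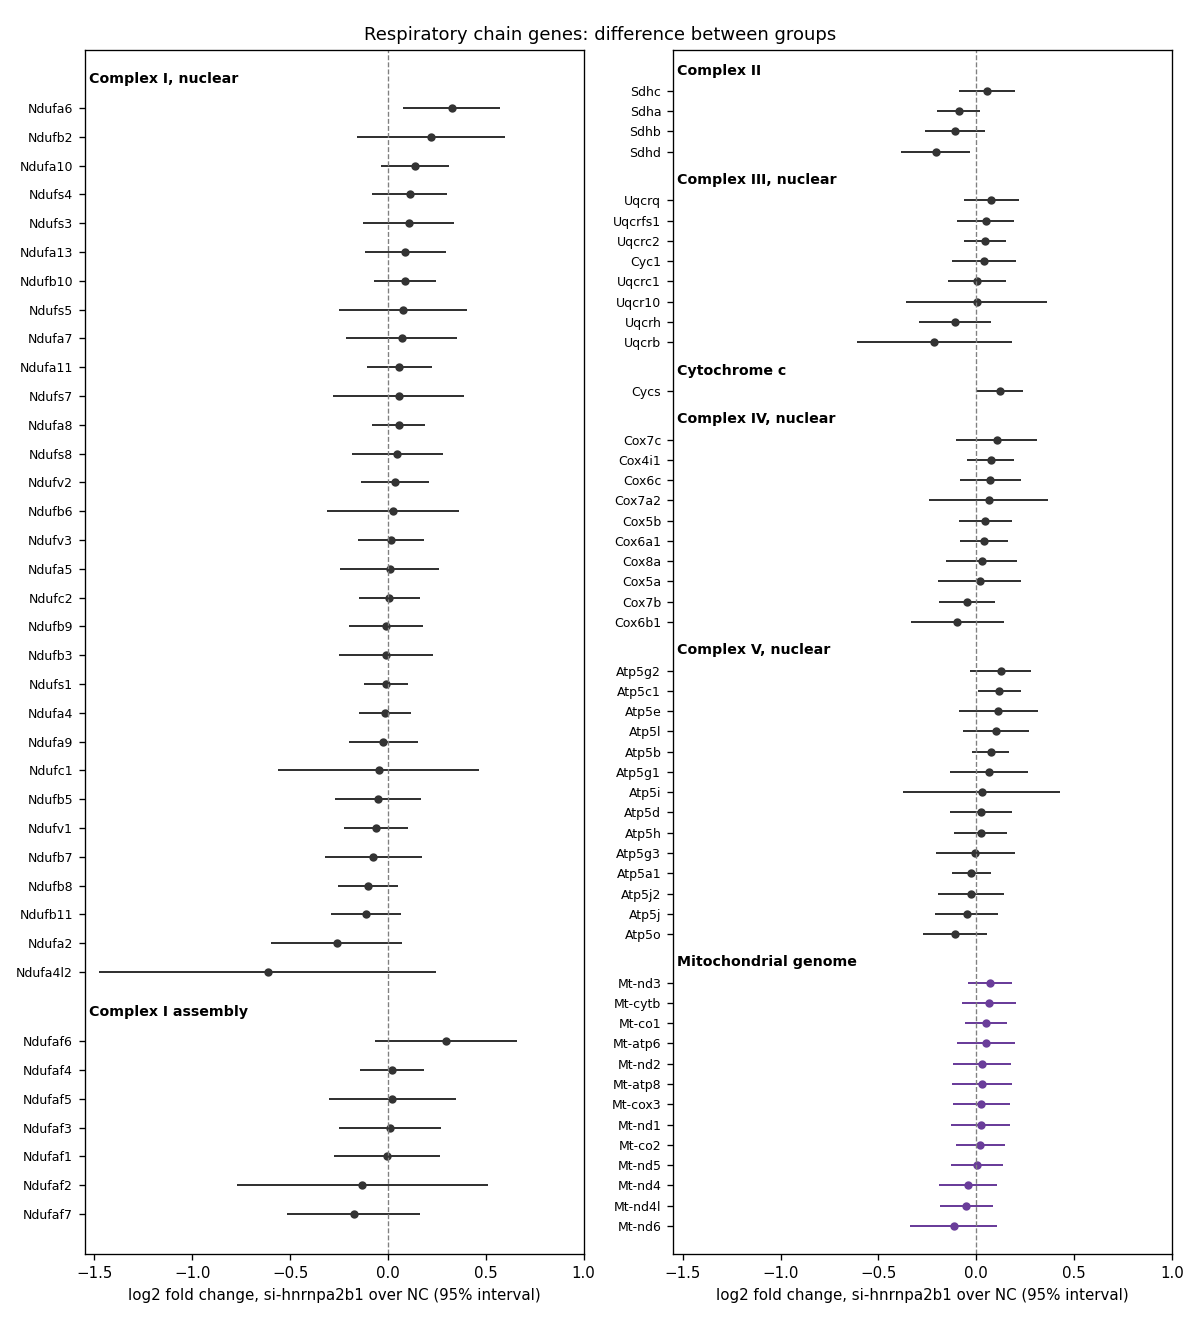
Log2 fold change of the tested subunit, cytochrome c and complex I assembly genes, with 1 complex I gene and the 4 tested other symbols not drawn, si-hnrnpa2b1 over NC, with its 95% interval from the edgeR quasi-likelihood fit (horizontal axis), by complex; nuclear genes are black and mitochondrial genome genes purple. The intervals of Ndufa6, Sdhd, Atp5c1 and Cycs leave out 0, and none of the 93 genes passed the adjusted threshold.

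The other 11 members did not pass the filter on low counts, and were not tested. Ndufa1, Cox6c1, Cox7b2, Cox8b, Cox8c and Ndufb4l1 had no count in any library. Atp5f1, Atp5hl1, Cox4i2, Cox6a2 and Cox6b2 had at most 48 counts summed over the 6 libraries. Ndufa1 and Atp5f1 are names of regular subunits, so their absence here concerns the rows carrying those names and not necessarily the transcript. No row at all carried the names Ndufa3, Ndufa12, Ndufab1, Ndufb1, Ndufb4, Ndufs6 or Uqcr11, also names of regular subunits. The members of complexes I and III are thus not every subunit of those complexes.

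The 2 genomes differed by far more in level than either did between groups. Per length, in FPKM (counts scaled to gene length and library size), the median mitochondrial member stood at 5059 FPKM and the median tested nuclear subunit at 47.9 FPKM over the 6 libraries, a ratio of 106. The summed level of the nuclear subunits was 3935, 3882 and 3949 CPM in si-hnrnpa2b1 cells, against 4013, 3688 and 3915 CPM in NC cells. This was 3922 ± 35.6 CPM and 3872 ± 167 CPM (SD, n = 3 each), a difference of 1.29% with overlapping groups. The summed level of the mitochondrial genome members was 70248, 60741 and 60382 CPM in si-hnrnpa2b1 cells, against 59500, 65597 and 61937 CPM in NC cells. Here the difference of 2.32% was smaller than the SD of either group, and its direction depended on 1 library: without si-hnrnpa2b1 replicate 1 the difference from NC was -2.86%. The ratio of mitochondrial to nuclear subunit counts was 17.8, 15.6 and 15.3 in si-hnrnpa2b1 cells and 14.8, 17.8 and 15.8 in NC cells. The ratio averaged 16.3 ± 1.39 in si-hnrnpa2b1 and 16.1 ± 1.51 in NC libraries (SD, n = 3 each), so its spread within a group exceeded the difference between groups.

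**Figure D2:**
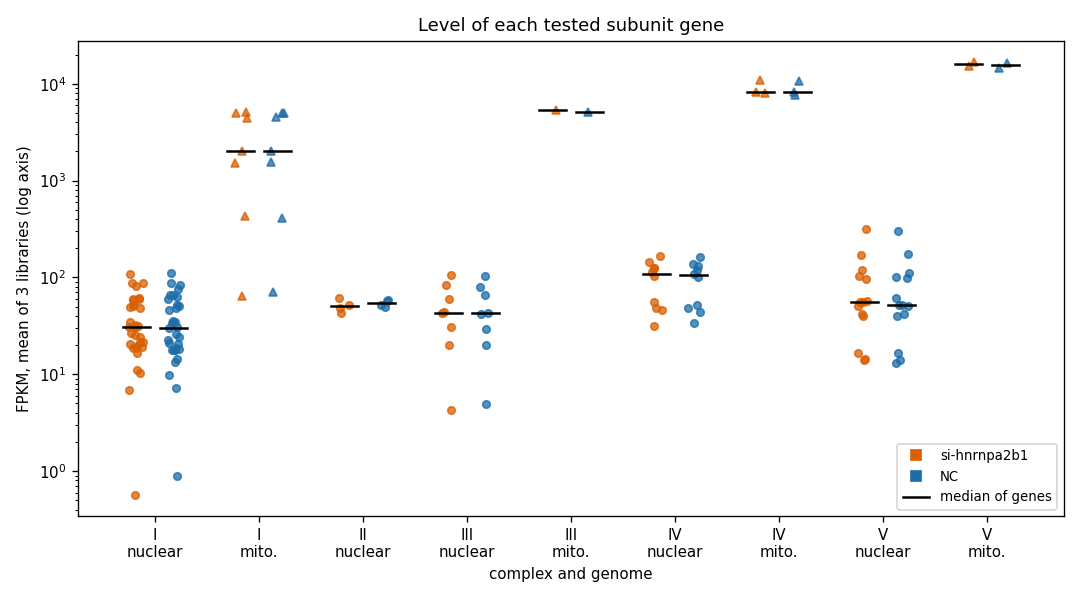
FPKM of each tested subunit gene (log axis, mean of 3 libraries), by complex and genome, with si-hnrnpa2b1 in orange left of NC in blue and black bars at the median of genes. Mitochondrial genome genes, drawn as triangles, lie above the nuclear genes of the same complex, apart from Mt-nd6 at 64.7 and 70.3 FPKM.

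Median log2 fold changes of both genomes were close to that of all tested genes, which was -0.0015. The median was 0.03 for the 68 tested nuclear subunits, 42 of them above 0, and 0.03 for the 13 mitochondrial genes, 10 of them above 0, while 6081 of the 12261 tested genes were above 0. By complex, the nuclear medians were 0.01 for complex I (32 genes), -0.10 for complex II (4 genes), 0.02 for complex III (8 genes), 0.04 for complex IV (10 genes) and 0.03 for complex V (14 genes). The mitochondrial medians were 0.00 for complex I (7 genes), 0.03 for complex IV (3 genes) and 0.04 for complex V (2 genes), and Mt-cytb, the single complex III gene, was at 0.07. In complexes I, IV and V the nuclear and mitochondrial medians were thus within 0.02 of each other on the log2 scale. Among these, complex II alone had a median below 0. It stayed between -0.14 and -0.06 when 1 library was left out. The nuclear medians of complexes IV and V also kept their sign, at 0.0231 to 0.06 and 0.016 to 0.0653. Those of complexes I and III took either sign.

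**Figure D3:**
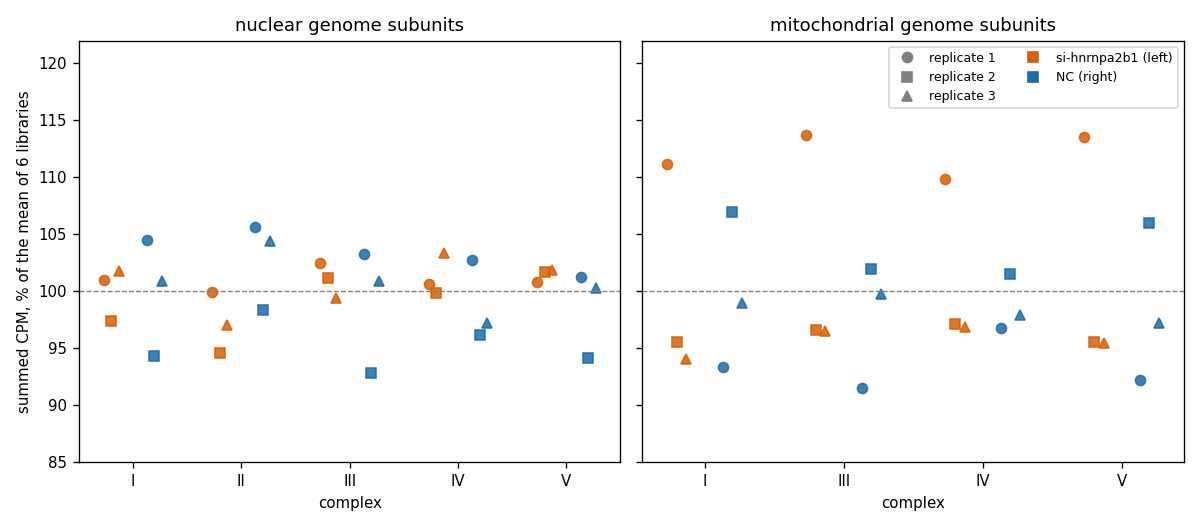
Summed CPM of the nuclear (left panel) and mitochondrial (right panel) subunits of each complex in each library, as a percentage of the mean of the 6 libraries, with si-hnrnpa2b1 in orange left of NC in blue and symbols marking replicates. Groups overlap in every column, and si-hnrnpa2b1 replicate 1 is the highest library in each mitochondrial column.

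Complex I, the NADH dehydrogenase, had 32 of its 33 nuclear members tested. Their summed level was 1156 ± 26.9 CPM in si-hnrnpa2b1 and 1155 ± 59.6 CPM in NC cells (SD, n = 3 each). Ndufa6 (chromosome 7, 123583062 to 123586919, Rnor_6.0), an accessory subunit of the matrix arm, had the smallest adjusted p of all members. It had 14.4, 13.4 and 13.5 CPM in si-hnrnpa2b1 cells, against 10.30, 10.51 and 12.05 CPM in NC cells. All 3 si-hnrnpa2b1 libraries were above all 3 NC libraries. The log2 fold change was 0.33 (95% interval 0.08 to 0.57), and the adjusted p of 0.128 in the edgeR quasi-likelihood test with Benjamini-Hochberg adjustment missed the threshold. In limma on log2(FPKM + 1) it was the 1 member called, where 2.80% of all genes were, with an adjusted p of 0.0454 and a log2 difference of 0.31. The same held on log2(FPKM + 0.1), where 2.85% of all genes were called. Over all alternatives its adjusted p ran from 0.0436 to 0.306.

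Ndufa10, an accessory subunit, had a log2 fold change of 0.14 (95% interval -0.03 to 0.31), and its groups overlapped. The highest levels per length were those of Ndufa4, Ndufc2 and Ndufa11, at 109 ± 6.42, 87.5 ± 5.77 and 86.7 ± 5.76 FPKM in si-hnrnpa2b1 cells, against 110 ± 3.56, 87.3 ± 5.78 and 83.6 ± 7.08 FPKM in NC cells (SD, n = 3 each). Ndufa4 is named as a complex I subunit but is now placed in complex IV. By its symbol, Ndufa4 was counted here in the sums and medians of complex I. Its paralog Ndufa4l2, known for its induction in hypoxia, was the lowest tested subunit gene, at 0.571 ± 0.081 FPKM in si-hnrnpa2b1 and 0.881 ± 0.063 FPKM in NC cells (SD, n = 3 each). Its groups did not overlap, but the log2 fold change of -0.61 had a 95% interval of -1.47 to 0.24. Of the 32 genes, 18 were above 0 and 14 at or below it. The models of Ndufa2, Ndufa4, Ndufb6, Ndufs3 and Ndufs8 overlap another gene, and the sources used here do not say to which gene shared reads were assigned.

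The 7 complex I assembly factors had a median log2 fold change of 0.01. Ndufaf6 had 5.11, 6.51 and 5.76 CPM in si-hnrnpa2b1 cells, against 5.08, 4.39 and 4.64 CPM in NC cells. The lowest si-hnrnpa2b1 value and the highest NC value nearly met, and the log2 fold change of 0.30 (95% interval -0.06 to 0.66) did not pass (edgeR quasi-likelihood test with Benjamini-Hochberg adjustment, adjusted p = 0.380). The other 6 overlapped between groups.

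Complex II, succinate dehydrogenase, links the citric acid cycle to the chain and was the complex whose summed level was lowest in si-hnrnpa2b1 relative to NC cells. Its 4 genes summed to 291, 276 and 283 CPM in si-hnrnpa2b1 cells, against 308, 287 and 304 CPM in NC cells, a difference of -5.47% with overlapping groups. Sdhd (chromosome 8, 55028125 to 55037604, Rnor_6.0), a membrane anchor subunit, had 52.1, 50.8 and 52.6 CPM in si-hnrnpa2b1 cells, against 67.7, 52.8 and 58.9 CPM in NC cells. The groups did not overlap, although NC replicate 2 lay next to the si-hnrnpa2b1 values. The log2 fold change was -0.21 (95% interval -0.38 to -0.04), with an adjusted p of 0.167 in the edgeR quasi-likelihood test with Benjamini-Hochberg adjustment. Without NC replicate 2 it was -0.29 with an adjusted p of 0.0335, and over all alternatives the adjusted p ran from that value to 0.521. Over all genes, the fits that left out 1 library called 379 to 592.

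Sdha, the flavoprotein subunit that oxidises succinate, had 113, 107 and 111 CPM in si-hnrnpa2b1 cells, against 117, 116 and 119 CPM in NC cells. The si-hnrnpa2b1 libraries were again the 3 lowest, at a log2 fold change of -0.09 (95% interval -0.20 to 0.02). Sdhb, the iron-sulfur subunit, had 56.1, 47.9 and 49.7 CPM in si-hnrnpa2b1 cells, against 53.3, 56.4 and 55.9 CPM in NC cells. Sdhc, the other anchor, had 70.3, 70.4 and 69.4 CPM in si-hnrnpa2b1 cells, against 69.4, 61.7 and 70.9 CPM in NC cells. Groups overlapped for both, with log2 fold changes of -0.11 for Sdhb and 0.06 for Sdhc, so that 3 of the 4 genes were below 0 and none passed the test.

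Complex III, the cytochrome bc1 complex, had all 8 nuclear members tested, summing to 496 ± 7.66 CPM in si-hnrnpa2b1 and 486 ± 26.9 CPM in NC cells (SD, n = 3 each). Uqcrq, a small accessory subunit, had 45.6, 46.6 and 47.3 CPM in si-hnrnpa2b1 cells, against 44.5, 43.3 and 44.5 CPM in NC cells. These groups did not overlap, with a log2 fold change of 0.08 (95% interval -0.06 to 0.21). The hinge protein gene Uqcrh and the small subunit gene Uqcrb had log2 fold changes of -0.11 and -0.21 with overlapping groups, and Uqcrb was the lowest of the 8 in level, at 4.29 FPKM in si-hnrnpa2b1 and 4.98 FPKM in NC cells. The core protein gene Uqcrc2 was the highest, at 106 ± 2.88 FPKM in si-hnrnpa2b1 and 103 ± 4.74 FPKM in NC cells (SD, n = 3 each). The Rieske iron-sulfur protein gene Uqcrfs1 and the cytochrome c1 gene Cyc1 had log2 fold changes of 0.05 and 0.04. Mt-cytb, cytochrome b, the one complex III subunit made in mitochondria, had 5317 ± 474 FPKM in si-hnrnpa2b1 and 5097 ± 252 FPKM in NC cells (SD, n = 3 each).

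Cytochrome c, which carries electrons from complex III to complex IV, is encoded by Cycs. The row with most counts is a model on chromosome 18 (62476383 to 62476700, Rnor_6.0) whose span of 318 bases equals the length used for its FPKM, so the model holds no intron. It had 118, 112 and 113 CPM in si-hnrnpa2b1 cells, against 102, 110 and 104 CPM in NC cells. The groups did not overlap, at a log2 fold change of 0.12 (95% interval 0.01 to 0.23), which did not pass (edgeR quasi-likelihood test with Benjamini-Hochberg adjustment, adjusted p = 0.235). A second Cycs row on chromosome 4 (80331227 to 80333326) spans 2100 bases for a length of 1200. It had 369, 353 and 337 counts in si-hnrnpa2b1 libraries and 316, 254 and 311 counts in NC libraries, with an adjusted p of 0.294 in the same edgeR test. In both rows the si-hnrnpa2b1 libraries were the 3 highest. Which of the 2 rows the reads came from is uncertain.

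Complex IV, cytochrome c oxidase, had 10 of its 17 nuclear members tested. They summed to 506 ± 9.11 CPM in si-hnrnpa2b1 and 493 ± 17.5 CPM in NC cells (SD, n = 3 each), and 8 of the 10 had a log2 fold change above 0. The highest in level were Cox6a1, Cox4i1 and Cox7b, at 166 ± 5.19, 144 ± 7.06 and 126 ± 2.71 FPKM in si-hnrnpa2b1 cells, against 162 ± 5.28, 137 ± 4.76 and 131 ± 9.20 FPKM in NC cells (SD, n = 3 each). The model of Cox6a1 lies wholly within that of Gatc, so its level may include reads of either gene. The 3 smallest unadjusted p-values belonged to Cox4i1, Cox7c and Cox6c, with log2 fold changes of 0.07, 0.10 and 0.07 and adjusted p-values of 0.511, 0.629 and 0.653 in the edgeR quasi-likelihood test with Benjamini-Hochberg adjustment. No complex IV gene had groups that did not overlap among the 10 tested.

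Several complex IV subunits exist as pairs of isoforms, 1 of them widespread and the other restricted to muscle, lung or testis. In these cells the widespread form carried nearly all counts. Cox4i1 had 106 ± 4.69 CPM in si-hnrnpa2b1 and 100.3 ± 2.54 CPM in NC cells (SD, n = 3 each), whereas Cox4i2, known from lung, had 5, 0 and 0 counts in si-hnrnpa2b1 libraries and 0, 0 and 2 counts in NC libraries. Cox6a2, the heart and muscle form beside Cox6a1, had 10, 10 and 13 counts in si-hnrnpa2b1 libraries and 4, 5 and 6 counts in NC libraries. The 3 si-hnrnpa2b1 libraries held more Cox6a2 counts than the 3 NC libraries, but the gene stayed under the count filter and was not tested. Cox6b2, the testis form, had 0, 2 and 0 counts in si-hnrnpa2b1 libraries and 0, 4 and 4 counts in NC libraries, and Cox8b and Cox8c had none beside Cox8a. Cox6b1 and Cox7a2 have second rows, and the Cox7a2 row kept here, on chromosome 14, is a model without an intron, and how their reads divide between copies is not known.

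Complex V had 14 of its 15 nuclear members tested, summing to 1480 ± 8.47 CPM in si-hnrnpa2b1 and 1438 ± 55.9 CPM in NC cells (SD, n = 3 each), and 9 of the 14 were above 0. Atp5c1, the gamma subunit of the rotating central stalk, had 141, 137 and 139 CPM in si-hnrnpa2b1 cells, against 126, 125 and 132 CPM in NC cells. The groups did not overlap, and the log2 fold change of 0.12 (95% interval 0.02 to 0.22) did not pass (edgeR quasi-likelihood test with Benjamini-Hochberg adjustment, adjusted p = 0.196). Its model is long, spanning 184899 bases of chromosome 17 (72209373 to 72394271, Rnor_6.0) with an FPKM length of 9764, and which transcripts its counts cover is not known from the table.

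Atp5b, the catalytic beta subunit, had 551, 578 and 572 CPM in si-hnrnpa2b1 cells, against 551, 524 and 541 CPM in NC cells. The groups were separated only narrowly, at a log2 fold change of 0.08 (95% interval -0.01 to 0.16). Atp5b was the highest nuclear subunit in level, at 320 ± 10.2 FPKM in si-hnrnpa2b1 and 304 ± 10.9 FPKM in NC cells (SD, n = 3 each), followed by its partner Atp5a1, the alpha subunit, at 171 ± 2.65 FPKM in si-hnrnpa2b1 and 175 ± 9.78 FPKM in NC cells. Atp5l, subunit g of the membrane part, stood at 119 ± 3.62 FPKM in si-hnrnpa2b1 and 111 ± 13.5 FPKM in NC cells (SD, n = 3 each). The model of Atp5j, the coupling factor 6 subunit, lies wholly within that of Gabpa, and shared reads may count for either. Atp5e, the epsilon subunit of the stalk, had 21.2, 21.7 and 19.9 CPM in si-hnrnpa2b1 cells, against 19.2, 19.9 and 19.0 CPM in NC cells, again narrowly separated.

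The c ring that turns with the proton flow is encoded by Atp5g1, Atp5g2 and Atp5g3, whose mature proteins are the same. Their levels were 41.8 ± 1.99, 56.4 ± 4.25 and 50.2 ± 1.10 FPKM in si-hnrnpa2b1 cells, against 40.0 ± 3.12, 51.9 ± 2.67 and 50.5 ± 7.89 FPKM in NC cells (SD, n = 3 each). The log2 fold changes were 0.07 for Atp5g1, 0.13 for Atp5g2 (95% interval -0.03 to 0.28) and -0.01 for Atp5g3, and groups overlapped for all 3.

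**Figure D4:**
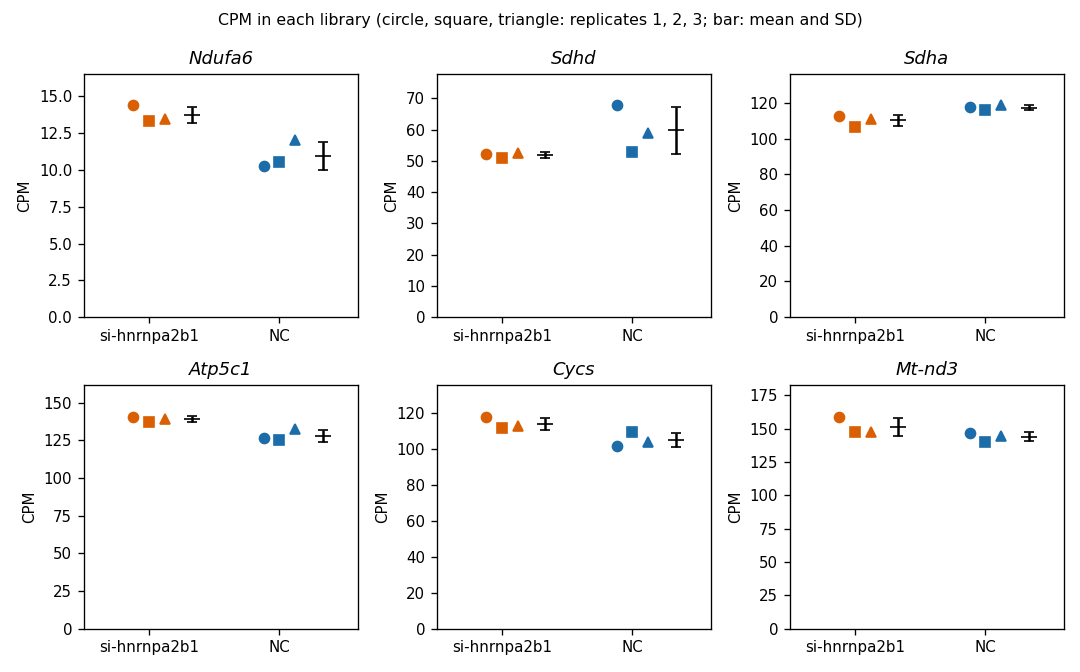
CPM in each library for 6 members whose groups did not overlap, si-hnrnpa2b1 in orange left of NC in blue, with the mean and SD as a black bar. Ndufa6, Atp5c1, Cycs and Mt-nd3 are higher and Sdhd and Sdha lower in all 3 si-hnrnpa2b1 libraries, each by less than 0.4 on the log2 scale.

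The FPKM of the 13 protein genes of the mitochondrial genome spanned a wide range, although most of the genes share a precursor. The complex V genes were the highest: Mt-atp8 had 16670 ± 1544 FPKM in si-hnrnpa2b1 and 16373 ± 1243 FPKM in NC cells, and Mt-atp6 had 15092 ± 1446 FPKM in si-hnrnpa2b1 and 14632 ± 808 FPKM in NC cells (SD, n = 3 each). The models of these neighbours share 43 bases, and that of Mt-atp8 has 204 bases and that of Mt-atp6 681. Mt-atp8 was the higher of the 2 in all 6 libraries, by 1.10 to 1.14 times. The complex IV genes came next, with Mt-cox3 at 10929 ± 1111 FPKM in si-hnrnpa2b1 and 10757 ± 451 FPKM in NC cells, Mt-co2 at 8262 ± 642 FPKM in si-hnrnpa2b1 and 8162 ± 151 FPKM in NC cells, and Mt-co1 at 7980 ± 308 FPKM in si-hnrnpa2b1 and 7721 ± 52.9 FPKM in NC cells (SD, n = 3 each). Mt-co2 was above Mt-co1 in all 6 libraries, by 1.00 to 1.08 times.

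Mt-cytb, Mt-nd1 and Mt-nd2 lay close together: within a library, Mt-cytb stood at 0.967 to 1.06 times Mt-nd1, and Mt-nd1 at 1.00 to 1.03 times Mt-nd2. Mt-nd1 had 5092 ± 438 FPKM in si-hnrnpa2b1 and 5027 ± 374 FPKM in NC cells, and Mt-nd2 had 5020 ± 434 FPKM in si-hnrnpa2b1 and 4929 ± 357 FPKM in NC cells (SD, n = 3 each). The other complex I genes were lower. Mt-nd4l had 4403 ± 348 FPKM in si-hnrnpa2b1 and 4570 ± 273 FPKM in NC cells, and Mt-nd5 had 2039 ± 182 FPKM in si-hnrnpa2b1 and 2038 ± 62.0 FPKM in NC cells. Mt-nd4 had 1506 ± 161 FPKM in si-hnrnpa2b1 and 1555 ± 83.1 FPKM in NC cells, and Mt-nd3 had 434 ± 15.7 FPKM in si-hnrnpa2b1 and 414 ± 14.5 FPKM in NC cells. Mt-nd6, the gene of the other strand, was the lowest, at 64.7 ± 10.4 FPKM in si-hnrnpa2b1 and 70.3 ± 3.37 FPKM in NC cells (SD, n = 3 each). Its model overlaps that of Mt-nd5 by 23 bases, and the sources used here do not say whether counting used strand. The models of Mt-nd4l and Mt-nd4, of 297 and 1378 bases, share 7 bases. How far FPKM compares RNA levels between models of such unlike length was not tested.

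No mitochondrial gene passed the test, with 0 of 13 at an unadjusted p below 0.05 in edgeR, and all 13 intervals lay within ±0.5. Log2 fold changes ran from -0.11 for Mt-nd6 to 0.07 for Mt-nd3. Mt-nd3 was the single one whose groups did not overlap, with 159, 148 and 147 CPM in si-hnrnpa2b1 cells, against 147, 140 and 145 CPM in NC cells. The lowest si-hnrnpa2b1 and the highest NC value were nearly equal, and the 95% interval of the log2 fold change was -0.03 to 0.18.

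Instead of groups, single libraries set the mitochondrial genes apart. Of the 13 genes, 11 were highest in si-hnrnpa2b1 replicate 1 and the other 2, Mt-nd4l and Mt-nd6, in NC replicate 2. The median deviation from the mean of the 6 libraries was 0.16, -0.05 and -0.06 on the log2 scale in si-hnrnpa2b1 replicates 1, 2 and 3, against -0.07, 0.08 and -0.03 in NC replicates 1, 2 and 3. Most of the genes thus moved up and down together between libraries of 1 group. The nuclear subunits deviated in a different pattern: 0.01, -0.00 and 0.00 in the si-hnrnpa2b1 libraries and 0.04, -0.07 and 0.02 in the NC libraries, so that NC replicate 2 was high for the mitochondrial genes and low for the nuclear ones. The 13 genes share each library and most of them share a precursor, so their joint deviation is not 13 independent observations.

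**Figure D5:**
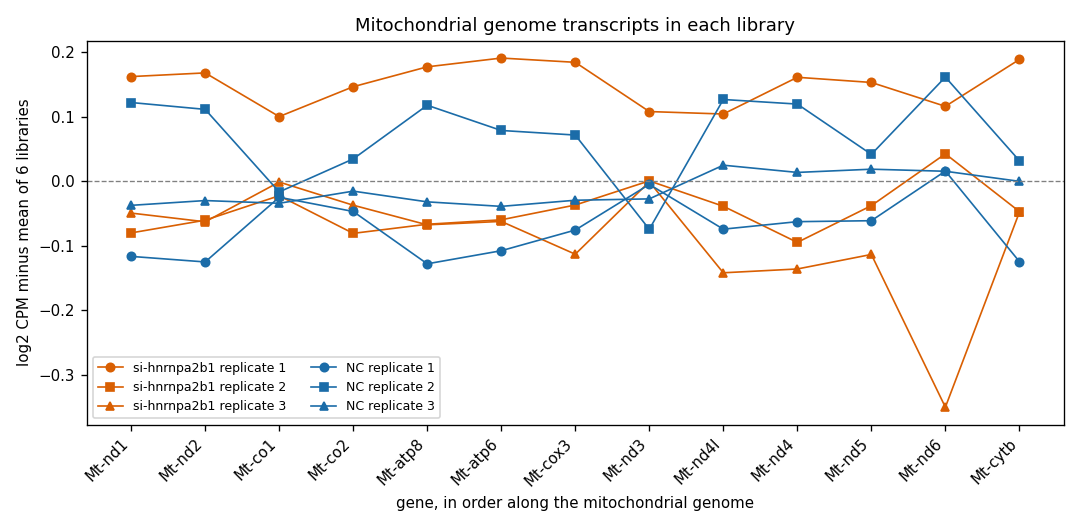
Log2 CPM of the 13 mitochondrial protein genes in each library, minus the mean of the 6 libraries (vertical axis), in order along the mitochondrial genome (horizontal axis), with si-hnrnpa2b1 in orange and NC in blue and symbols marking replicates. The line of si-hnrnpa2b1 replicate 1 is the highest at 11 of 13 genes, and the lines of the other si-hnrnpa2b1 libraries run within or below the range of NC, except at Mt-nd3 and Mt-co1.

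The promoters of the nuclear members have a feature that the choice by symbol did not use. Of the 69 tested nuclear subunits and Cycs, 61 matched a promoter of 300 bases in RefSeq (GRCr8, 250 bases before and 50 after the start). The core letters of the NRF1 site, CATGCGC, were present on either strand in 12 of the 61 (19.7%), against 7.31% of 9185 promoters of tested genes and 3.77% of all 33469 promoters. The ETS core bound by GABP, CCGGAAG, was present in 19 (31.1%), against 18.7% of tested genes and 8.75% of all promoters. The YY1 core, AAGATGGC, was present in 14 (23.0%), against 5.76% of tested genes and 3.17% of all promoters. The median log2 fold change of members was 0.04 with and 0.02 without the NRF1 core, and 0.03 with and 0.02 without the ETS core. For the YY1 core the medians had opposite signs, -0.01 with and 0.04 without it. These differences were not tested. A match is a run of letters and does not show that a factor binds.

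The 250 bases before the start are shown for the 4 members with an unadjusted p below 0.05, as examples of these promoters, with the letters of any of the 3 motifs in capitals (RefSeq, GRCr8, read 5′ to 3′ on the strand of the gene). The Cycs promoter is that of the RefSeq gene on chromosome 4, whereas the Cycs row with most counts lies on chromosome 18.
Ndufa6 chr7:115750318-115750567, minus strand: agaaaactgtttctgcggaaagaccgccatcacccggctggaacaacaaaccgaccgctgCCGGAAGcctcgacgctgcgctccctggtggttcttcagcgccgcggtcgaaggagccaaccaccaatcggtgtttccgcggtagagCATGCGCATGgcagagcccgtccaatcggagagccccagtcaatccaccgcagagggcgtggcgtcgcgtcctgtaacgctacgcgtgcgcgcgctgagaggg
Sdhd chr8:59850642-59850891, minus strand: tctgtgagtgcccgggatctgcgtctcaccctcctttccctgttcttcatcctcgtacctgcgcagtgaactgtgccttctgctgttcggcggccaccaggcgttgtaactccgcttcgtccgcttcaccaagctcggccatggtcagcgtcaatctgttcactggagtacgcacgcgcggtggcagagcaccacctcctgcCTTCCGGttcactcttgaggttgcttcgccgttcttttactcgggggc
Atp5c1 (RefSeq symbol Atp5f1c) chr17:73333435-73333684, plus strand: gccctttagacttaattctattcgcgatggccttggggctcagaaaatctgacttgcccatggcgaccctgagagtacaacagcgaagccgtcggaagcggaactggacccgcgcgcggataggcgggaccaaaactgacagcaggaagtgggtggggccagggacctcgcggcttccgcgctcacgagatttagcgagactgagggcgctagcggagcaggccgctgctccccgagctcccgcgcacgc
Cycs chr4:80984768-80985017, minus strand: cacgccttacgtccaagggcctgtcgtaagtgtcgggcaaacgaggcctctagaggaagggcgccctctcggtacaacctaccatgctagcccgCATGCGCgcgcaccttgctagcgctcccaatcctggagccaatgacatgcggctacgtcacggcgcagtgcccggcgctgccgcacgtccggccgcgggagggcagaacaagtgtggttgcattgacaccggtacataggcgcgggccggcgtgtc
Ndufa6 carries an ETS core starting at position -190 from the start and a pair of overlapping NRF1 cores, on opposite strands, at -103 and -100. A YY1 core of Ndufa6 lies in the 50 bases after the start, beyond the stretch shown. Sdhd carries an ETS core at -48, read on the other strand, and Cycs an NRF1 core at -156. None of the 3 motifs is in the Atp5c1 window of 300 bases. The 4 promoters thus differ in which motif they hold. Whether a motif bears on the difference of any of these genes was not tested.

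Genes that build or serve the chain were examined from lists outside the symbol rule, to be read against the 5.30% of all tested genes that edgeR called and the 18.3% at an unadjusted p below 0.05. Of 38 tested assembly factors, 0 rose or fell in edgeR and in DESeq2, with 1 at an unadjusted p below 0.05 and a median log2 fold change of -0.01. That gene was Cox17, the copper chaperone of complex IV, with 15.1, 15.1 and 16.9 CPM in si-hnrnpa2b1 cells, against 12.2, 11.2 and 13.2 CPM in NC cells. Its groups did not overlap, and the log2 fold change of 0.36 missed the threshold (edgeR quasi-likelihood test with Benjamini-Hochberg adjustment, adjusted p = 0.0806). Over all alternatives the adjusted p of Cox17 ran from 0.0381 to 0.271. Of 70 tested mitochondrial ribosomal proteins, 0 rose or fell in both tools, with 7 at an unadjusted p below 0.05 and a median of 0.04. Of 27 tested genes of import and the inner membrane, again 0 rose or fell in both tools, with 3 at an unadjusted p below 0.05. The outer membrane channel gene Vdac1 had the smallest adjusted p there, with 110 ± 0.769 CPM in si-hnrnpa2b1 and 97.4 ± 3.61 CPM in NC cells (SD, n = 3 each), a log2 fold change of 0.18 and an adjusted p of 0.0650 in the same edgeR test.

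Among 34 tested genes that transcribe, process and translate the mitochondrial genome, 0 rose and 1 fell (2.94%, against 5.30% of all tested genes). It was Pnpt1, polynucleotide phosphorylase, an RNA-degrading enzyme of mitochondria. It had 107, 105 and 111 CPM in si-hnrnpa2b1 cells, against 129, 137 and 115 CPM in NC cells. No si-hnrnpa2b1 library reached the NC values. The log2 fold change was -0.24 with an adjusted p of 0.0329 in the edgeR quasi-likelihood test with Benjamini-Hochberg adjustment. The call was lost in limma on log2(FPKM + 1) and on log2(FPKM + 0.1) (adjusted p = 0.0876 and 0.0861), with the replicate number as a block (0.0743) and in 5 of the 6 fits that left out 1 library, all but the one without NC replicate 3. Over all alternatives the adjusted p of Pnpt1 ran from 0.00644 to 0.135.

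Among 14 tested citric acid cycle genes other than Sdh, 0 rose and 1 fell (7.14%, against 5.30% of all tested genes). It was Sucla2, the ATP-forming beta subunit of succinyl-CoA synthetase. Sucla2 had 52.9, 51.3 and 53.8 CPM in si-hnrnpa2b1 cells, against 59.1, 63.2 and 62.3 CPM in NC cells. The groups were clearly apart, at a log2 fold change of -0.22 and an adjusted p of 0.0458 in the edgeR quasi-likelihood test with Benjamini-Hochberg adjustment. The call was lost in DESeq2 (adjusted p = 0.0613), without the filter on low counts (0.0646), in limma on log2(FPKM + 1) and on log2(FPKM + 0.1) (0.0525 and 0.0521), with the replicate number as a block (0.0847) and in every fit that left out 1 library. The adjusted p of Sucla2 ran from 0.0416 to 0.155 over all alternatives. Among 8 tested regulators of respiratory genes, 0 rose or fell in both tools and 1 had an unadjusted p below 0.05. It was Gabpb1, which encodes a subunit of GABP, at a log2 fold change of -0.29 (adjusted p = 0.145 in edgeR). Nrf1, Gabpa and Yy1, which bind the 3 promoter motifs, had log2 fold changes of 0.05, -0.04 and 0.04 with overlapping groups, where Gabpa has the Atp5j model within its own.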

How the data were processed

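Counts and FPKM of rat genes in 6 BRL-3A libraries were read from 1 deposited table. HISAT2 2.0.4, StringTie 1.3.0, edgeR and the build Rnor_6.0 are named, without role or order, per the submitters' processing notes. Per the file headers, the authors deposited unnormalized counts, 1 whole number per gene and library. The deposited FPKM values are the counts scaled by a fixed gene length and the library total (deviation at most 0.0617%). The strand setting and the handling of shared reads are unknown from these sources. No column of per-sample values was left unused.

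Counts were tested with edgeR 4.0.16 (R 4.3.3): filterByExpr (defaults: count 10, total 15) left 12261 genes, libraries were scaled by TMM, and glmQLFit and glmQLFTest gave two-sided p-values, adjusted by Benjamini-Hochberg over all 12261 genes with a threshold of 0.05. Groups came from the sample titles. CPM are TMM-scaled, and 95% intervals are the log2 fold change ± the t quantile times its standard error. DESeq2 1.42.0, limma 3.58.1 on log2(FPKM + 1) and log2(FPKM + 0.1), other scalings and filters, summed rows of a symbol, a replicate block and leaving out each library were the 17 alternatives. No pair of replicates agreed within sampling noise (chi-square per degree of freedom 2.91 to 6.00).

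Members and lists were chosen with earlier results of these data known. Genes were named by a rule: the mitochondrial genome members, the 3 smallest unadjusted p-values and the 3 highest mean FPKM of each complex, isoform pairs, and list genes past the threshold; further genes were named where groups did not overlap or where a p-value was the smallest of a list. One gene that the rule names is not reported here. No set test was run, and medians and sums over members have no p-value. Mitochondrial genome and protein sequences were not used here.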

Additional observations from a re-analysis of the deposited data

How the results depend on the processing

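Across the 17 alternatives, 0 of 13 mitochondrial genome members changed in every fit, and 0 nuclear members changed except as follows. Limma called 1 nuclear subunit gene, Ndufa6 of complex I, on both FPKM scales (adjusted p = 0.0454 with + 1 and 0.0436 with + 0.1), and without NC replicate 2 edgeR called 1, Sdhd of complex II. Leaving out 1 library thus gave 0 to 1 nuclear subunit genes and 0 to 1 complex II genes. Over all genes, limma called 343 with + 1 and 350 with + 0.1, against 650 in edgeR, and leaving out 1 library gave 379 to 592. The replicate numbers did not pair the libraries (correlations of same-numbered deviations 0.057, -0.004 and 0.059). With the replicate block 481 genes and 0 members changed. The complex III nuclear median, 0.02, ran between -0.0389 and 0.0607 when 1 library was left out, and was lowest without NC replicate 2. The mitochondrial median, 0.03, ran between -0.0564 and 0.0696 and was below 0 without si-hnrnpa2b1 replicate 1 and without NC replicate 1, and the nuclear subunit median, 0.03, was below 0 without NC replicate 2 (-0.0066). The alternatives gave 1682 single values for the tested members, the called list and marker genes and Hnrnpa2b1. Sign changes were counted only for genes not called in the main fit, and there were 103. The cause of these changes was not tested. Depth limits genes under about 20 counts a library, such as Ndufa4l2, whose interval spans more than 1 on the log2 scale.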
